A study of Mus musculus with 24 samples.

Results

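Gene expression in cultures of mouse osteoblasts, which lay down the matrix of bone, was compared between day 15 and day 10 of differentiation. All libraries of these days were taken, 12 of the 24 in the series, and each day 15 library was set against the day 10 library with the same genotype and batch number, which gave 6 pairs. The groups were cultures of a high bone mass (HBM) line at day 15, wild-type (WT) cultures at day 15, HBM cultures at day 10 and WT cultures at day 10, with 3 libraries each, numbered as batches 18, 19 and 21. Per the labels, the cultures were grown from pooled calvariae (skull bones) of newborn mice, with 3 independent pooled cultures of each genotype, and polyadenylated RNA was sequenced. The labels give neither the mutation of the HBM line nor the strain, the sex or the size of the pools, and single animals of a pool cannot be told apart.

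Osteoblasts secrete collagen I as procollagen, and the C-terminal propeptide is cut off by the protease BMP1 with help from PCOLCE before the fibrils form. The series title concerns this step. Calvarial cells in culture first divide, then deposit a collagen matrix and then mineralize it, and part of them comes to express genes of osteocytes, the cells buried in bone. Osteocytes are known for secreting sclerostin, a Wnt antagonist encoded by Sost, and for regulators of phosphate and mineral such as PHEX, DMP1 and MEPE.

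The 12 libraries held between 32941356 and 46987734 counts, and 16063 genes had enough counts to be tested. Batch, not day, was the main difference between them. The first principal component, with 42.3% of the variance, set batch 21 (44.78 to 62.81) apart from both other batches, whose values were negative, and the component that separated the days was the fourth, with 6.76%. The Y-linked gene Ddx3y, whose level follows the share of male cells, was carried by each culture from day to day: it was at 13.8, 37.6 and 78.1 CPM (counts scaled to a common library size) in the HBM cultures of batches 18, 19 and 21 at day 15, against 12.3, 36.1 and 77.4 CPM at day 10. In WT it was at 21.7, 54.6 and 72.0 CPM at day 15, against 21.4, 62.2 and 77.8 CPM at day 10. The order of the cultures of each genotype was the same on both days, and the days were compared within cultures.

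Within cultures, 1221 of the 16063 genes (7.6%) passed the test between day 15 and day 10, at an adjusted p under 0.05 in edgeR's quasi-likelihood test blocked by culture. Of these, 739 were higher at day 15 (4.6% of all genes tested) and 482 were lower (3.0%). Most steps were small: the median log2 change was 0.44 among the higher genes and -0.33 among the lower ones, and 133 higher genes but only 10 lower genes had moved by 2-fold or more. The sign was the same in all 6 cultures for 1106 of the 1221 genes. The levels of the cultures differed by more than the step, so that only 37 of the 1221 genes, and 50 of all genes tested (0.311%), had 6 day 15 values that did not overlap the 6 day 10 values. Without the culture block 0 genes passed, and 744 had an unadjusted p under 0.05. Leaving out 1 culture left 595 (without WT batch 19), 631 (without WT batch 18), 652 (without HBM batch 18), 678 (without HBM batch 19), 785 (without WT batch 21) or 1031 genes (without HBM batch 21), and leaving out both cultures of batch 19 left 256. In these bulk samples fewer cells of a type and less RNA per cell cannot be told apart.

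**Figure D1:**
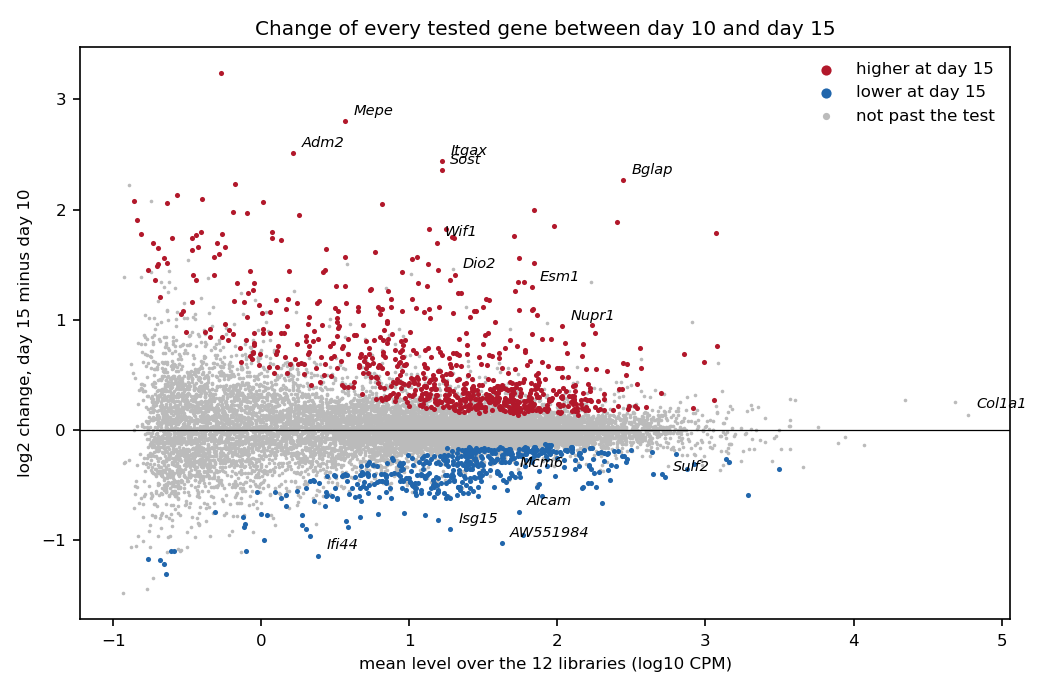
Change of each of the 16063 genes tested between day 15 and day 10 (vertical axis, log2, positive when higher at day 15) against its mean level (horizontal axis, log10 CPM over the 12 libraries). Red points are the 739 genes higher and blue points the 482 genes lower at day 15, and the strongest changes are on the higher side, where Mepe, Adm2, Itgax, Sost and Bglap are labelled.

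Collagen I was already abundant at day 10 and did not pass the test. Col1a1, on chr11:94936224-94953042 of mm10, was at 93800, 109000 and 47800 CPM in HBM and 52600, 55500 and 22500 CPM in WT at day 15, against 71400, 89300 and 43700 CPM in HBM and 44200, 49200 and 29500 CPM in WT at day 10. The level was higher at day 15 in 5 of the 6 cultures, by a log2 of 0.13 to 0.39, and lower in the WT culture of batch 21, at -0.39. The fitted log2 change was 0.14 ± 0.13 (SE; adjusted p = 0.56). Col1a2, the gene of the other chain, had the same exception, -0.20 in WT batch 21 against 0.27 to 0.43 in the other cultures, and a fitted log2 change of 0.25 ± 0.12 (adjusted p = 0.237). Of the propeptide processing genes, Bmp1 had a log2 change of 0.09 ± 0.052 (adjusted p = 0.307) and Pcolce one of -0.13 ± 0.055 (adjusted p = 0.194), with overlapping levels on both days. Alpl, the alkaline phosphatase that frees phosphate for mineral, had 0.44 ± 0.15 (adjusted p = 0.0999).

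Osteocalcin and several genes of osteocytes were higher at day 15. Bglap, which encodes osteocalcin (chr3:88383501-88384464), was at 939, 703 and 141 CPM in HBM and 228, 450 and 39.3 CPM in WT at day 15, against 329, 334 and 16 CPM in HBM and 34.0, 135 and 1.81 CPM in WT at day 10. It was higher at day 15 in all 6 cultures, although the days overlapped, because the lowest culture at day 15, WT batch 21, lay below 3 of the day 10 libraries. The fitted change was 4.83-fold (log2 2.27 ± 0.34, adjusted p = 0.00637). The neighbouring copy Bglap2 changed by a log2 of 1.89 ± 0.25 (adjusted p = 0.00405); both genes are nearly identical, and how the counting divided their reads is not known. Across the 4 days sampled, Bglap averaged 0.1, 226, 596 and 926 CPM in HBM and 0.133, 57.4, 243 and 422 CPM in WT at days 0, 10, 15 and 21.

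Sost (chr11:101962458-101967015), the gene of sclerostin, was at 26.5, 95.3 and 3.68 CPM in HBM and 4.01, 35.2 and 1.31 CPM in WT at day 15, against 7.66, 14.8 and 0.0237 CPM in HBM and 0.646, 10.5 and 0 CPM in WT at day 10. Every culture gained, and the days overlapped because batch 19 was high and batch 21 low on both. The fitted change was 5.12-fold (log2 2.36 ± 0.29, adjusted p = 0.0033). Mepe, which encodes a matrix phosphoglycoprotein of osteocytes, had the largest change among called genes averaging 1 CPM or more with 1 sign in all cultures, 6.96-fold, at 0.409, 3.16 and 16.6 CPM (lowest, median and highest) at day 15, against 0, 0.329 and 3.32 CPM at day 10 (log2 2.80 ± 0.40, adjusted p = 0.00507). Dmp1, another osteocyte matrix protein, followed no common course. It was at 58.7, 39.9 and 141 CPM in HBM and 29.7, 31.0 and 29.7 CPM in WT at day 15, against 52.0, 123 and 4.5 CPM in HBM and 11.0, 53.3 and 3.29 CPM in WT at day 10. It was lower at day 15 in both cultures of batch 19 and higher in the other 4 (log2 0.92 ± 0.77, adjusted p = 0.51).

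Of 17 bone matrix proteins tested, 8 were higher and 0 lower at day 15, with a median log2 change of 0.98, against 7.6% called and a median of -0.0007 over all genes tested. Beside Bglap, Bglap2 and Mepe these were Chad, Phospho1, Spock1, Bmp3 and Ibsp, of which Chad was lost without WT batch 19 (adjusted p = 0.0507) and Phospho1, Spock1 and Bmp3 without WT batch 18 (0.0731, 0.0776 and 0.0906) or WT batch 21 (0.0555, 0.0555 and 0.0699). Phospho1 was also lost without WT batch 19 (0.0659), Spock1 without HBM batch 18 (0.0679), and Bmp3 without WT batch 19 (0.0515), HBM batch 18 (0.0603) or HBM batch 21 (0.0576). Ibsp, the mineral-binding bone sialoprotein, was at 258, 1300 and 3290 CPM at day 15, against 20, 521 and 2330 CPM at day 10, higher in every culture (log2 1.79 ± 0.43, adjusted p = 0.0371). Its call was lost without WT batch 18 (adjusted p = 0.0926), WT batch 19 (0.0651), WT batch 21 (0.0622) or HBM batch 21 (0.0668). The list count fell to 4 without any single WT culture (batch 18, 19 or 21).

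Phosphate and mineral genes counted 5 higher and 0 lower of 19 (median 0.21), and 1 higher without both cultures of batch 19. Phex, a peptidase whose loss in mice and people causes phosphate wasting, was at 11.2, 92.0 and 212 CPM at day 15, against 2.20, 39.0 and 105 CPM at day 10, and was higher in all 6 cultures (2.87-fold, log2 1.52 ± 0.25, adjusted p = 0.00814). Fam20c, the kinase that phosphorylates secreted matrix proteins, moved less but evenly, by a log2 of 0.16 to 0.39 in the 6 cultures (0.29 ± 0.045, adjusted p = 0.00717). The sodium-calcium exchanger Slc8a3 (0.71 ± 0.13, adjusted p = 0.0134) and the carbonic anhydrase Car3 (1.34 ± 0.25, adjusted p = 0.0147) also rose. Of 18 osteocyte genes, 6 were higher and 1 lower (median 0.17): Sost, Ptprz1, Mepe, Phex, Dkk1 and Cd109 were higher, and the gap junction gene Gja1 was lower. Ptprz1, a receptor phosphatase, was at 15.4, 54.7 and 205 CPM at day 15, against 2.89, 18.9 and 73.3 CPM at day 10 (3.4-fold, log2 1.76 ± 0.22, adjusted p = 0.00359). The other 11, among them Pdpn (-0.09), Postn (-0.02) and Reln (0.52), did not pass. The summed level of the osteocyte list did not rise with the called genes. It was at 2150, 4200 and 5870 CPM (lowest, median and highest) at day 15, against 2720, 4260 and 4760 CPM at day 10. The sum was higher in 2 cultures and lower in 4. Cd109 was lost without WT batch 18 (adjusted p = 0.0598) or HBM batch 18 (0.051), and Gja1 without WT batch 18 (0.114), 19 (0.0978) or 21 (0.0834) or HBM batch 18 (0.074).

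**Figure D2:**
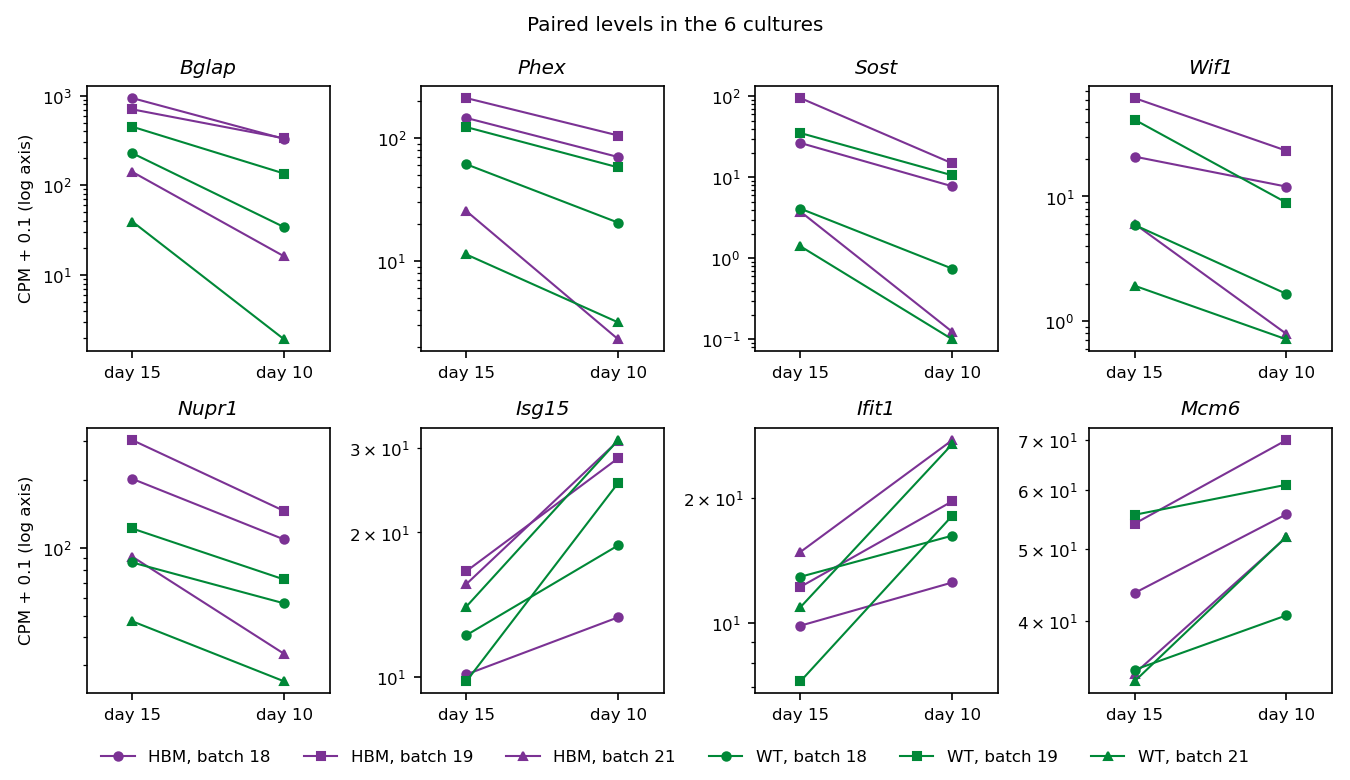
Level of 8 genes in each culture at day 15 (left in each panel) and day 10 (right), in CPM plus 0.1 on a log axis, with 1 line for each of the 6 cultures, HBM and WT in different colours. Bglap, Phex, Sost, Wif1 and Nupr1 are higher at day 15 in every culture and Isg15, Ifit1 and Mcm6 lower in every culture. Except for Isg15, the cultures differ from each other by more than the days.

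The transcription factors that define osteoblasts were mostly level. Of 20 tested, 4 were higher and 1 lower, with a median of -0.02. Runx2, the factor without which osteoblasts do not form, had a log2 change of -0.04 (adjusted p = 0.747) and Dlx5 one of 0.15 (adjusted p = 0.346). Mef2c, which in mouse osteocytes drives the distal enhancer of Sost, was at 46.7, 77.7 and 212 CPM at day 15, against 28.1, 51.6 and 137 CPM at day 10. It was higher in all 6 cultures (1.54-fold, log2 0.62 ± 0.061, adjusted p = 0.00135). Sp7, which encodes osterix, had 0.48 ± 0.11 (adjusted p = 0.026, and 0.064 without WT batch 18 and 0.0769 without WT batch 19). Dlx3 (higher) and Sox11 (lower) were each lost without WT batch 18 (adjusted p = 0.0922 and 0.0597), WT batch 19 (0.0717 and 0.0726) or HBM batch 18 (0.0543 and 0.0594), Dlx3 also without WT batch 21 (0.0619) and Sox11 without HBM batch 19 (0.0541). The list had 1 higher gene without WT batch 18 or WT batch 19 and 2 without HBM batch 18.

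Of 22 receptors for the hormones of bone, 3 were higher and 0 lower, where 4.6% of all genes tested were higher. The list as a whole was level, with 12 values above 0 and 10 below (median 0.02). Vdr, the vitamin D receptor, was at 15.1, 45.8 and 96.4 CPM at day 15, against 13.1, 29.7 and 48.7 CPM at day 10 (log2 0.70 ± 0.10, adjusted p = 0.00528). Pth1r, the receptor of parathyroid hormone, had a log2 change of 0.55 ± 0.095 (adjusted p = 0.0108), and overlaps Myl3 on the opposite strand, whose reads could not be separated. The third, the prostaglandin receptor Ptger4 (0.56, adjusted p = 0.023), was lost without WT batch 18 (0.0704), WT batch 19 (0.062) or HBM batch 19 (0.0603).

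Secreted Wnt modulators, most of which bind Wnt proteins or their co-receptors and block the signal, rose in part. Of 15 tested, 5 were higher and 1 lower (median 0.08), and the 5 higher ones remained 5 on leaving out any 1 culture. The summed level of the list did not rise with them. It was at 2140, 2820 and 5010 CPM (lowest, median and highest) at day 15, against 2160, 3050 and 5010 CPM at day 10, and was lower in 5 of 6 cultures. Wif1, a Wnt-binding inhibitor, was at 1.82, 13.4 and 61.6 CPM at day 15, against 0.612, 5.18 and 23.2 CPM at day 10 (3.24-fold, log2 1.70 ± 0.22, adjusted p = 0.00379). Dkk1, which blocks the LRP co-receptors, was at 2.57, 18.6 and 77.4 CPM at day 15, against 0.102, 5.92 and 34.5 CPM at day 10 (log2 1.82 ± 0.34, adjusted p = 0.0134). Both were higher in every culture. Frzb (log2 1.26 ± 0.16, adjusted p = 0.00379) and Sfrp4 (0.71 ± 0.12, adjusted p = 0.00813), secreted frizzled-related decoys, rose with Sost. Dkk3 was the lower one (-0.22, adjusted p = 0.0493), and its call was lost on leaving out any 1 culture, with an adjusted p of 0.0606 without HBM batch 19 and up to 0.122 without WT batch 19. Sfrp1 (0.35, adjusted p = 0.178), Sfrp2 (-0.28, adjusted p = 0.0702) and the activators Rspo1, Rspo2 and Rspo3 (0.02, 0.17 and -0.05) did not pass. Of 31 Wnt ligands, receptors and targets, 1 was higher and 1 lower. The higher one was Lgr6, an R-spondin receptor (2.97-fold, log2 1.57 ± 0.26, adjusted p = 0.00869), while the target gene Axin2 had -0.31 (adjusted p = 0.359). The lower call of this list was lost without WT batch 19, HBM batch 18 or HBM batch 21.

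BMP and TGF-beta ligands, antagonists and targets counted 10 higher and 1 lower of 36 (median 0.06). Tgfb1 was at 52.5, 85.6 and 122 CPM at day 15, against 41.2, 66.4 and 105 CPM at day 10, higher in all 6 cultures by 0.22 to 0.57 (log2 0.36 ± 0.048, adjusted p = 0.00388), and its receptor gene Tgfbr1 rose by a log2 of 0.25 ± 0.045 (adjusted p = 0.0124). Bmp8a (1.43 ± 0.26, adjusted p = 0.0123) and Gdf10 (0.42 ± 0.072, adjusted p = 0.0103) are ligands, and Bambi, a decoy receptor, had 0.67 ± 0.10 (adjusted p = 0.00576). The count of higher genes was 5 without WT batch 18, WT batch 19 or HBM batch 18, and the lower call was lost on leaving out any culture but WT batch 19.

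The collagens apart from collagen I divided. Of 11 fibril chains, Col24a1 was higher (log2 0.83 ± 0.16, adjusted p = 0.0153) and Col27a1 lower (-0.33 ± 0.051, adjusted p = 0.00702). Of 19 fibril-associated and network collagens, 3 were higher and 1 lower. Col22a1 was at 21.4, 110 and 286 CPM at day 15, against 2.7, 42.2 and 161 CPM at day 10 (3.61-fold, log2 1.85 ± 0.30, adjusted p = 0.00813). Col13a1, a membrane collagen, had 1.56 ± 0.25 (adjusted p = 0.0073) and Col16a1 -0.31 ± 0.053 (adjusted p = 0.00942), while Col15a1 (0.87, adjusted p = 0.0334) was lost without WT batch 18 (0.0761), WT batch 19 (0.0926), HBM batch 18 (0.0575) or HBM batch 19 (0.0747). Of 32 procollagen modification and processing genes, 1 was higher and 1 lower. The higher one was Pcolce2, an enhancer of propeptide removal related to Pcolce, at 3.06, 11.4 and 19.4 CPM at day 15, against 2.76, 6.05 and 13.8 CPM at day 10 (log2 0.59 ± 0.11, adjusted p = 0.012). The lower one was P4ha3, a subunit of collagen prolyl hydroxylase (-0.18 ± 0.047, adjusted p = 0.0482), whose call was lost on leaving out any 1 culture (0.0731 to 0.105). Among 5 lysyl oxidases, which cross-link collagen, Loxl4 rose 2.12-fold in every culture (log2 1.09 ± 0.11, adjusted p = 0.00135), with 18.0, 70.7 and 227 CPM at day 15, against 12.4, 32.0 and 110 CPM at day 10. Loxl1 was the lower one of this list (-0.21 ± 0.044, adjusted p = 0.0242), lost without WT batch 19 (0.0605), HBM batch 18 (0.0733), HBM batch 19 (0.0603) or HBM batch 21 (0.0504).

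Enzymes and carriers of heparan sulfate, the sulfated sugar chain that holds growth factors at the cell surface, were in part lower at day 15. Of 31 hyaluronan and heparan sulfate genes, 6 were lower and 1 higher (median -0.06). Sulf2, which removes sulfate groups outside the cell, was at 348, 444 and 570 CPM at day 15, against 435, 608 and 784 CPM at day 10, and lower by a log2 of -0.52 to -0.32 in the 6 cultures (-0.43 ± 0.046, adjusted p = 0.00163); it overlaps Ncoa3 on the opposite strand. The sulfotransferases Hs3st3b1 (-0.62 ± 0.061, adjusted p = 0.00135) and Hs3st3a1 (-0.61 ± 0.074, adjusted p = 0.00287) fell together, and so did the carrier proteins Gpc3 (-0.37 ± 0.049, adjusted p = 0.00379) and Sdc1 (-0.35 ± 0.046, adjusted p = 0.00401). Hpse, which encodes the enzyme that cleaves heparan sulfate, was the higher member (0.70, adjusted p = 0.0234, lost without WT batch 18 at 0.0535, WT batch 19 at 0.0539, WT batch 21 at 0.0589 or HBM batch 18 at 0.0612). Elastic fibre genes had 2 higher and 3 lower of 19, with Ltbp2 (0.56 ± 0.076, adjusted p = 0.00405) and Mfap5 (0.44 ± 0.059, adjusted p = 0.00416) higher, and 1 lower without WT batch 19 or HBM batch 19.

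Further secreted signals were called in part. In the IGF system 3 of 19 were higher and 2 lower. Igfbp7, an IGF-binding protein (0.48 ± 0.069, adjusted p = 0.00507), and Stc2, an inhibitor of the protease that cleaves IGF-binding proteins (1.12 ± 0.17, adjusted p = 0.00604), were higher. Grb10, an intracellular brake on the insulin and IGF receptors, was lower (-0.35 ± 0.064, adjusted p = 0.0135). Of 20 FGF genes, 3 were higher and 1 lower, and 1 was higher without WT batch 19, WT batch 21, HBM batch 18 or HBM batch 19. Fgf1 was at 2.94, 4.83 and 7.05 CPM at day 15, against 1.68, 2.77 and 3.77 CPM at day 10 (log2 0.83 ± 0.11, adjusted p = 0.00379). The lower one was the receptor gene Fgfr4, whose days did not overlap, at 1.71, 2.31 and 2.40 CPM at day 15, against 2.93, 3.27 and 3.83 CPM at day 10 (-0.60 ± 0.11, adjusted p = 0.0144). Chemokines had 4 higher and 0 lower of 19, and 2 higher without WT batch 21. Cxcl12, which in bone retains blood stem cells, was at 416, 933 and 1460 CPM at day 15, against 266, 554 and 922 CPM at day 10 (0.69 ± 0.096, adjusted p = 0.00457). Il34, a ligand of the macrophage receptor CSF1R, rose by a log2 of 0.36 ± 0.059 (adjusted p = 0.00803). Semaphorins and their receptors had 4 higher and 0 lower of 24, led by Sema4d (0.57 ± 0.071, adjusted p = 0.00335), with 2 higher without WT batch 18 or WT batch 19. Complement genes had 5 higher and 0 lower of 19, led by the membrane protector Cd59a (0.43 ± 0.046, adjusted p = 0.00163), with 2 higher without WT batch 18, 3 without WT batch 19 or HBM batch 18 and 8 without HBM batch 21.

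**Figure D3:**
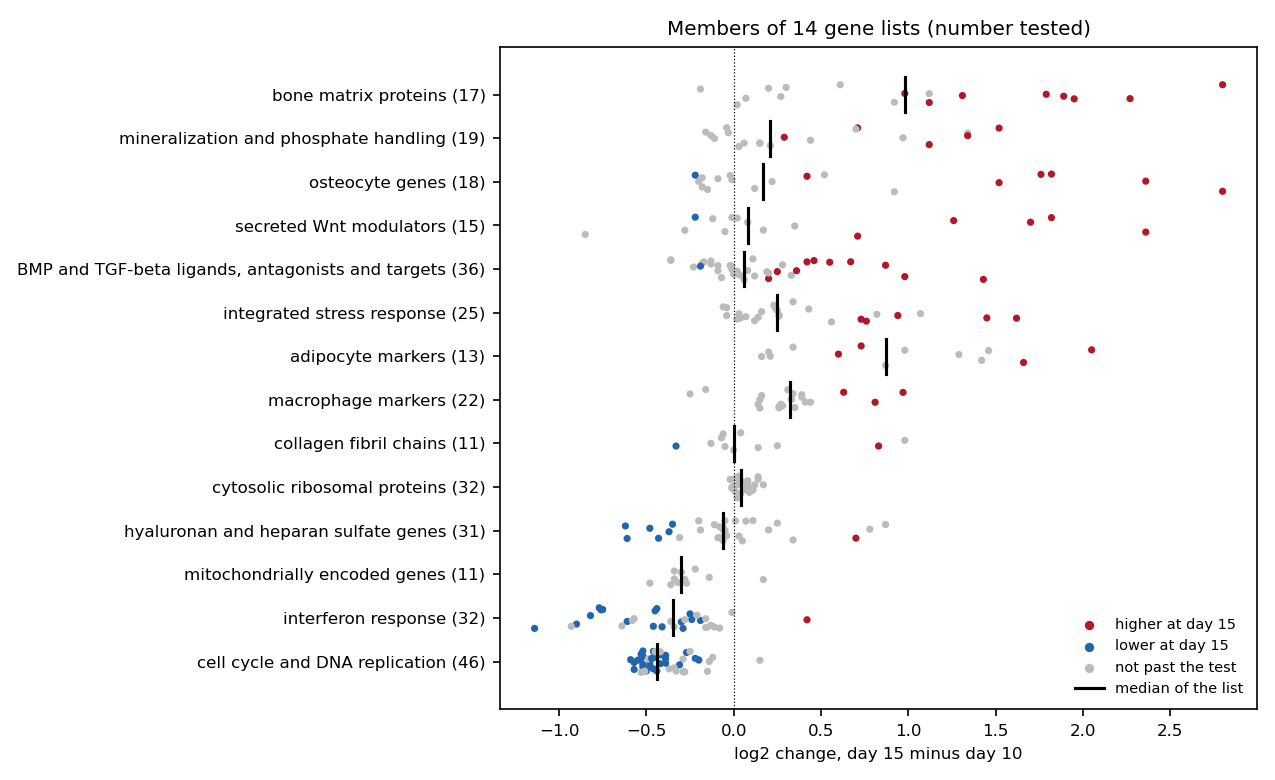
Log2 change between day 15 and day 10 of each tested member of 14 gene lists, with the number tested in brackets; red points were higher, blue points lower and grey points not past the test, and a black bar marks each median. The interferon and cell cycle lists lie almost wholly below 0, with medians of -0.35 and -0.44, and the bone matrix proteins mostly above, with 0.98.

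Many genes of the interferon response were lower at day 15. These genes are switched on through the factor ISGF3, which holds STAT2 and IRF9, when cells sense interferon or viral RNA. Of 32 tested, 16 were lower and 1 higher, and 31 of the 32 had a value below 0 (median -0.35). Isg15, a ubiquitin-like protein (chr4:156199424-156200818), was at 10.0, 16.5 and 15.5 CPM in HBM and 12.1, 9.67 and 13.9 CPM in WT at day 15, against 13.2, 28.5 and 31.0 CPM in HBM and 18.7, 25.3 and 31.1 CPM in WT at day 10. All 6 cultures were lower, and only the HBM culture of batch 18 at day 10 fell within the day 15 range. The level at day 15 was 0.535 of that at day 10 (log2 -0.90 ± 0.11, adjusted p = 0.0033).

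The decrease took in the factors as well as their targets. Of the factors, Stat2 was at 29.1, 36.6 and 41.1 CPM at day 15, against 40.4, 50.8 and 52.8 CPM at day 10 (-0.45 ± 0.052, adjusted p = 0.00239) and Irf9 had -0.30 ± 0.046 (adjusted p = 0.00717). Irf7, which amplifies the response, had -0.75 ± 0.10 (adjusted p = 0.00402) and overlaps Phrf1 on the opposite strand. Of the antiviral targets, Ifit1 was at 7.13, 11.5 and 14.7 CPM at day 15, against 12.4, 18.8 and 27.4 CPM at day 10 (-0.82 ± 0.14, adjusted p = 0.0088). Ifi44 was the strongest, with no overlap between 1.07, 1.47 and 1.90 CPM at day 15 and 2.08, 2.95 and 5.40 CPM at day 10 (-1.14 ± 0.21, adjusted p = 0.0143). Usp18, Oasl2, Dhx58, Xaf1 and Gbp3 fell by a log2 of -0.76 to -0.41. The higher member was Isg20, an exonuclease (0.42 ± 0.058, adjusted p = 0.0042). The other 15, such as Mx2 (-0.58, adjusted p = 0.0539), Bst2 (-0.28, adjusted p = 0.0549) and Ifit2 (-0.08, adjusted p = 0.506), did not pass. Between 12 and 15 members were lower on leaving out any 1 culture, but 3 without both cultures of batch 19. Over all 4 days Isg15 averaged 71.6, 24.2, 14.1 and 10.8 CPM in HBM and 125, 25.1, 12 and 12.6 CPM in WT at days 0, 10, 15 and 21.

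The stretch before the start site of these genes was searched for the core of the interferon-stimulated response element (GAAA, any 2 bases and GAAA again, on either strand) in RefSeq windows of 300 bases (250 before and 50 after the start, GRCm38.p6). The 5 motifs searched, here and below, were chosen after the values had been seen. A gene was counted once, as holding a motif if any of its windows did. The core stood in 14 of 24 genes of the interferon list with a window (58.3%) and in 450 of 11737 tested genes with a window (3.83%). Of the lower members with a window, 7 of 13 held it: Gbp3, Ifit1, Ifit3, Ifit3b, Isg15, Oas3 and Stat2. Among all genes lower at day 15 it was in 30 of 381 with a window (7.87%), and among all higher ones in 27 of 562 (4.8%). The 250 bases before the start are shown for 2 targets and for the factor Stat2, with the core in capitals. The windows are chr4:156200819-156201068 on the minus strand for Isg15, chr19:34640639-34640888 on the plus strand for Ifit1 and chr10:128270248-128270497 on the plus strand for Stat2.
Isg15: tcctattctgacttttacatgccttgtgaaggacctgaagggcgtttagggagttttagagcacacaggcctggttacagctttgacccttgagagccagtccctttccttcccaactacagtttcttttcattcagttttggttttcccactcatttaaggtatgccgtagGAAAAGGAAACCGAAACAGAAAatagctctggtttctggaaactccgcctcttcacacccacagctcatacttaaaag
Ifit1: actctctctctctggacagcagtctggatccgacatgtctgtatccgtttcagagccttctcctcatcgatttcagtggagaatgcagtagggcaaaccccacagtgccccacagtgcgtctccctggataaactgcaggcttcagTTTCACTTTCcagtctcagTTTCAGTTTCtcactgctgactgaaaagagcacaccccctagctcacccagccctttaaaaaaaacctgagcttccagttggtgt
Stat2: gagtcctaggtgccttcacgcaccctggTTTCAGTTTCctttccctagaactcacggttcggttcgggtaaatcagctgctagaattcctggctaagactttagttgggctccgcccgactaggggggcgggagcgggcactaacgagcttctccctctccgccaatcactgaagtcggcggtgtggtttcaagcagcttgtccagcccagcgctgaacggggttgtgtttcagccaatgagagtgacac
In Isg15 the match began 78 bases before the start and ran over 22 bases of repeated cores, in Ifit1 there were matches at 104 and 85 bases, and in Stat2 at 222 bases.

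Many cell division genes were lower at day 15. Of 46 genes of the cell cycle and DNA replication, 28 were lower and 0 higher, and 45 had a value below 0 (median -0.44). Mcm6, a subunit of the replicative helicase (chr1:128331590-128359664), was at 43.5, 53.9 and 33.9 CPM in HBM and 34.3, 55.4 and 33.1 CPM in WT at day 15, against 55.5, 69.8 and 51.7 CPM in HBM and 40.6, 60.8 and 51.8 CPM in WT at day 10. All 6 cultures were lower, by a log2 of -0.64 to -0.13, and the days overlapped (-0.39 ± 0.067, adjusted p = 0.0102). Ccne1, the cyclin of entry into DNA synthesis (-0.48 ± 0.072, adjusted p = 0.00613), the thymidine kinase Tk1 (-0.52 ± 0.093, adjusted p = 0.0118), the mitotic ubiquitin enzyme Ube2c (-0.57 ± 0.10, adjusted p = 0.0132) and the spindle checkpoint kinase Bub1b (-0.55 ± 0.10, adjusted p = 0.015) kept their calls on leaving out any 1 culture.

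Many other calls in this list were close to the threshold. Mki67, the usual proliferation marker, was at 30.3, 47.1 and 105 CPM at day 15, against 42.2, 73.9 and 133 CPM at day 10 (-0.52 ± 0.14, adjusted p = 0.0497), and its call was lost on leaving out any culture but WT batch 21, with adjusted p of 0.0645 to 0.099. The number lower was 10 without HBM batch 19, 15 without HBM batch 21, 17 without WT batch 19, WT batch 21 or HBM batch 18, and 22 without WT batch 18, and it was 3 without both cultures of batch 19. Of 14 inhibitors of the cycle, Cdkn2a was higher, at 24.2, 54.3 and 85.8 CPM at day 15, against 19.3, 42.8 and 66.7 CPM at day 10, by a log2 of 0.30 to 0.48 in the 6 cultures (0.37 ± 0.039, adjusted p = 0.00163). Cdkn1c, an imprinted inhibitor, was lower (-0.53 ± 0.074, adjusted p = 0.0044).

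E2F factors activate replication genes, and their sites were searched as TTTCCCGC and TTTGGCGC on either strand, which do not overlap each other. Each stood in 4 of 36 genes of the list with a window and in 2 of its 24 lower members with a window. Of 11737 tested genes with a window, 263 (2.24%) and 125 (1.07%) held them. The 250 bases before the start of Mcm6, chr1:128359706-128359955 on the minus strand, are shown because they hold TTTGGCGC at both 110 and 47 bases before the start, here in capitals.
Mcm6: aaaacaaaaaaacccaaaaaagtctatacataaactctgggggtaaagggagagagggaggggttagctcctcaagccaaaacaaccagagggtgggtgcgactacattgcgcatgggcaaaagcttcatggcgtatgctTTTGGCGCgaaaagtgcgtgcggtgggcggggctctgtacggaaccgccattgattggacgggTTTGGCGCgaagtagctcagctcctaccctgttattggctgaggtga

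In the integrated stress response the factor ATF4 raises amino acid supply and stress genes when translation is slowed. Of 25 of its genes tested, 5 were higher and 0 lower, and 22 had a value above 0 (median 0.25). Nupr1, a stress-induced chromatin protein (chr7:126623249-126630861), was at 203, 302 and 91.4 CPM in HBM and 86.1, 122 and 47.1 CPM in WT at day 15, against 109, 146 and 33.7 CPM in HBM and 56.6, 72.3 and 25.4 CPM in WT at day 10. It was higher in each culture, by a log2 of 0.60 to 1.44 (1.91-fold, 0.94 ± 0.09, adjusted p = 0.00135). Chac1, which degrades glutathione, was at 4.29, 9.90 and 81.1 CPM at day 15, against 2.38, 4.66 and 12.8 CPM at day 10 (2.73-fold, 1.45 ± 0.27, adjusted p = 0.0131). Atf3, a stress-induced factor (0.73 ± 0.11, adjusted p = 0.00528), and Vldlr, a lipoprotein receptor (0.76 ± 0.11, adjusted p = 0.00653), were the next, and Trib3 (1.62 ± 0.34, adjusted p = 0.0223) was lost without WT batch 19 (0.0662) or HBM batch 18 (0.0564). Atf4 itself (0.26, adjusted p = 0.0549), Asns (0.56, adjusted p = 0.0722) and Ddit3 (0.16, adjusted p = 0.377) did not pass. Without both cultures of batch 19, 1 member was higher, with 3 without batch 18 and 13 without batch 21. Of 24 genes of chaperones and the unfolded protein response, 1 was higher and 2 lower, and the higher call was lost without WT batch 18, WT batch 19 or HBM batch 18, and both lower ones without any 1 culture but WT batch 19, where 1 was lower.

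The ATF4 core TTGCATCA, on either strand, was in 6 of 22 genes of this list with a window (27.3%) and in 87 of 11737 tested genes (0.741%). Of the 5 higher members, Nupr1, Chac1, Atf3 and Vldlr held it. Among all genes higher at day 15 it was in 15 of 562 with a window (2.67%), and among lower ones in 2 of 381 (0.525%). The 250 bases before the start are shown for Nupr1 (chr7:126625471-126625720, minus strand), Chac1 (chr2:119350992-119351241, plus strand) and Atf3 (chr1:191183334-191183583, minus strand), with the core in capitals at 110, 193 and 110 bases before the start.
Nupr1: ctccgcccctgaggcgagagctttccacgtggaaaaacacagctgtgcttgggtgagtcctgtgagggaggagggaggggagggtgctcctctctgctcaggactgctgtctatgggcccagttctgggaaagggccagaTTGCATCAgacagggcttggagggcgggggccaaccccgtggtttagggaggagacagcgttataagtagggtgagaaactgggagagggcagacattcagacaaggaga
Chac1: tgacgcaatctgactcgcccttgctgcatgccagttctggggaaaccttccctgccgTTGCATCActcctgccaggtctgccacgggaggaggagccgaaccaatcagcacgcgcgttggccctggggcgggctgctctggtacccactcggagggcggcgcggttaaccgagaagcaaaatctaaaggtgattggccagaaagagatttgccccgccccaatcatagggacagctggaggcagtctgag
Atf3: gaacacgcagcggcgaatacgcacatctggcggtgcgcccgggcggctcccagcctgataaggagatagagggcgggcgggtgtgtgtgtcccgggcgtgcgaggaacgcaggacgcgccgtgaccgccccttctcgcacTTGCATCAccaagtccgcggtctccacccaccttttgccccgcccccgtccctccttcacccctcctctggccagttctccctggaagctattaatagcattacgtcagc

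The site of the osteoblast factor RUNX2 was searched as AACCACA on either strand. Of the genes with a window, 2 of 11 bone matrix genes, 1 of 14 phosphate and mineral genes and 1 of 15 osteocyte genes held it. It was in 0 of the 6, 4 and 5 higher members of these lists with a window. Among all genes higher at day 15 it was in 23 of 562 with a window (4.09%), and among tested genes in 536 of 11737 (4.57%).

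**Figure D4:**
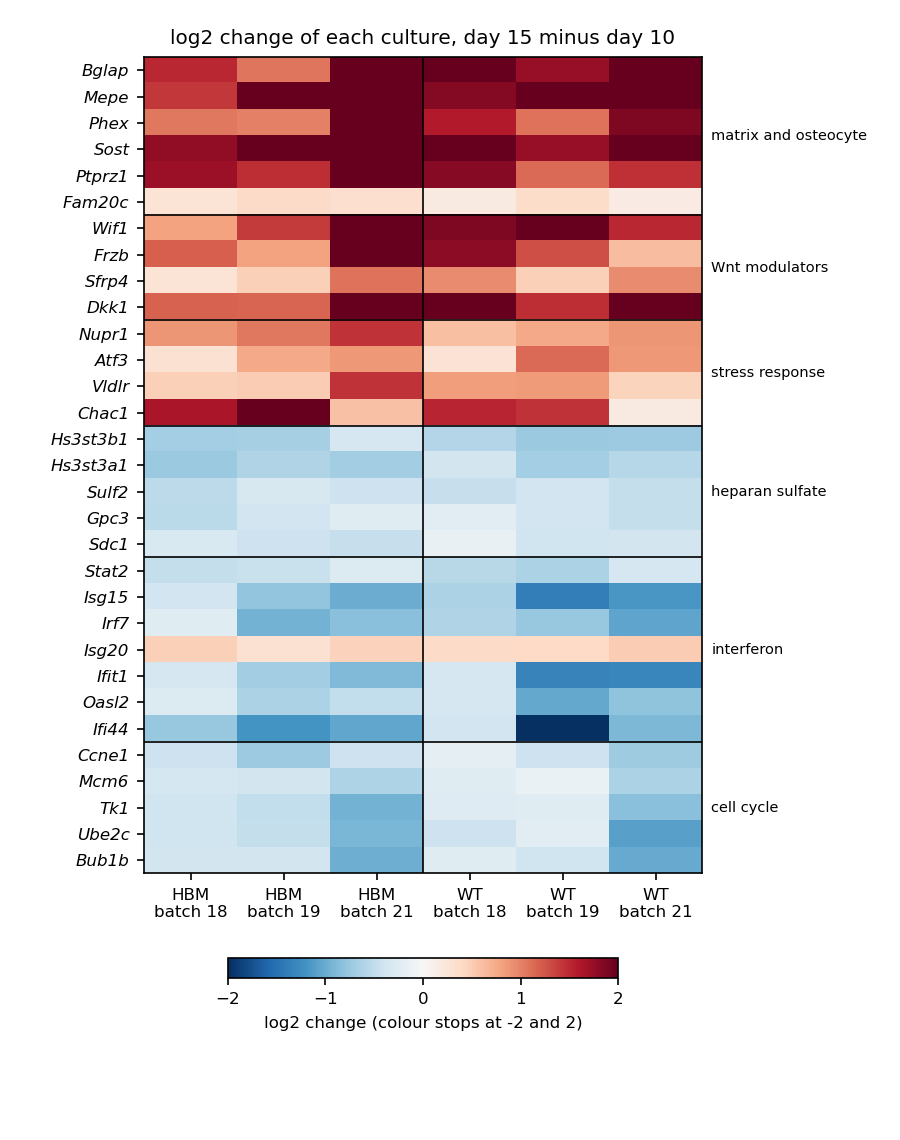
Log2 change between day 15 and day 10 in each of the 6 cultures (columns, HBM left, WT right) for 31 genes of 6 groups (rows); red is higher and blue lower at day 15, and the colour stops at -2 and 2. The signs agree across the columns, which the choice of the rows among called genes largely fixes, and Dmp1, which did not pass, is not shown. Bglap, Sost and Dkk1 moved most in batch 21 of each genotype, and Isg15, Ifit1 and Oasl2 least in batch 18.

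Among amino acid transporters 3 of 21 were higher and 1 lower, with 1 higher without WT batch 19. The arginine transporter Slc7a2 rose (0.50 ± 0.087, adjusted p = 0.0112), and Slc38a4, an imprinted carrier of neutral amino acids, fell (-0.43 ± 0.047, adjusted p = 0.00177). Of 24 antioxidant genes 5 were higher and 0 lower, led by Selenop, the plasma selenium carrier (0.76 ± 0.14, adjusted p = 0.0132), but 1 was higher without WT batch 18 or WT batch 19, 2 without WT batch 21 and 3 without HBM batch 18 or HBM batch 19. No member was called among 22 sterol genes (median -0.08), 32 cytosolic ribosomal proteins (0.04) or 11 mitochondrially encoded genes (-0.30), by edgeR. Of 26 glycolysis and hypoxia genes 1 passed, Vegfa (0.39, adjusted p = 0.0231, lost without WT batch 19 at 0.0666 or HBM batch 18 at 0.0657).

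Further matrix and membrane lists were mixed or nearly level. Small leucine-rich proteoglycans had 1 higher and 1 lower of 15, matricellular and adhesive proteins 2 higher and 2 lower of 19, proteases of the matrix and their inhibitors 2 and 2 of 20, and integrins and collagen receptors 1 and 2 of 20. Thbs3, a thrombospondin, was at 31.7, 51.1 and 60.1 CPM at day 15, against 52.2, 62.3 and 78.4 CPM at day 10, lower in every culture (-0.43 ± 0.075, adjusted p = 0.0114), and overlaps Mtx1 on the opposite strand. Contractile actin and smooth muscle genes had 0 higher and 2 lower of 17. Fatty acid and triglyceride genes had 3 higher and 0 lower of 26, among them the fatty acid carrier Fabp3 (0.54 ± 0.087, adjusted p = 0.008) and the uptake receptor Cd36 (0.56 ± 0.095, adjusted p = 0.00953), and lysosome genes 2 higher and 0 lower of 24, led by the protease gene Ctsh (0.33 ± 0.044, adjusted p = 0.00388). Factors that regulate osteoclasts had 2 higher and 1 lower of 12 (the lower one lost on leaving out any culture but HBM batch 19), nuclear genes of the respiratory chain 1 higher of 30 and immediate early genes 1 higher of 22. These small counts moved with single cultures. Without WT batch 18 edgeR called 0 matricellular genes and 0 proteases higher and 0 contractile genes lower. Without WT batch 19 it called 0 leucine-rich proteoglycans and 0 integrins in either direction, and 0 proteases and 0 contractile genes lower. Other cultures moved these counts too: without HBM batch 18 or 19 there were 0 lower proteases and 0 lower contractile genes, and without WT batch 21 there were 0 higher proteases and 0 integrins. The respiratory chain gene was called only without HBM batch 21 among the 6 leave-outs, and 1 lysosome gene was higher without WT batch 18, 19 or 21 or HBM batch 18, and 4 without HBM batch 21.

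The steadiest single genes lay partly outside these lists. Both higher and lower ones were picked among called genes with the same sign in all 6 cultures and at least 1 CPM on average. Fam78b, without a role stated here, had the smallest p among higher genes and was at 5.90, 15.3 and 39.8 CPM at day 15, against 3.50, 6.55 and 17.8 CPM at day 10, higher by a log2 of 0.75 to 1.3 (2.15-fold, 1.10 ± 0.072, adjusted p = 0.000253). Dio2, which makes active thyroid hormone, was at 8.99, 28.8 and 56.9 CPM at day 15, against 3.53, 9.45 and 25.8 CPM at day 10 (2.67-fold, 1.41 ± 0.13, adjusted p = 0.00133). Esm1, a secreted proteoglycan, was at 33.0, 92.2 and 151 CPM at day 15, against 20.4, 30.6 and 78.5 CPM at day 10 (2.45-fold, 1.3 ± 0.12, adjusted p = 0.00133). All 3 were higher in each culture, as that choice required, with days that overlapped. The junction protein gene Jam2 (0.69 ± 0.055, adjusted p = 0.00114), Ranbp3l (1.45 ± 0.13, adjusted p = 0.00133) and Zbtb7c (0.60 ± 0.052, adjusted p = 0.00133) belong to the same group. Adm2, a peptide hormone, rose 5.69-fold at low levels, 0.0804, 0.802 and 12.3 CPM at day 15, against 0.0237, 0.171 and 1.71 CPM at day 10 (2.51 ± 0.21, adjusted p = 0.00133). Across days 0, 10, 15 and 21 Dio2 averaged 0.499, 8.78, 22.3 and 44.0 CPM in HBM and 0.59, 14.3, 36.2 and 75.5 CPM in WT.

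Among lower genes Alcam, an adhesion protein of mesenchymal progenitors, had the smallest p. It was at 20.5, 40.9 and 64.1 CPM at day 15, against 30.3, 65.2 and 110 CPM at day 10, lower by a log2 of -0.85 to -0.56 in the 6 cultures (-0.74 ± 0.047, adjusted p = 0.000253). Ly6e, a membrane-anchored protein also induced by interferon, was at 74.5, 81.9 and 89.0 CPM at day 15, against 98.2, 109 and 129 CPM at day 10, without overlap of the days (-0.42 ± 0.039, adjusted p = 0.00135). AW551984 fell to 0.491 of its day 10 level (-1.03 ± 0.10, adjusted p = 0.00135). The skull patterning factor Six2 (-0.39 ± 0.042, adjusted p = 0.00163), Fjx1 (-0.46 ± 0.046, adjusted p = 0.00135) and Capn6 (-0.52 ± 0.057, adjusted p = 0.00177) were lower in every culture, as the same choice required. Gria1, a glutamate receptor subunit, had -0.96 ± 0.15 (adjusted p = 0.00793), and Agtr2, an angiotensin receptor, -0.90 ± 0.17 (adjusted p = 0.0161), lost without HBM batch 18 (0.0682).

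Markers of other cells that such cultures can hold were counted beside these results. Of 13 adipocyte markers 4 were higher and 0 lower (median 0.87), with a summed level of 413, 444 and 693 CPM (lowest, median and highest) at day 15, against 247, 284 and 637 CPM at day 10, higher in 6 of 6 cultures. Plin4 (0.73 ± 0.10, adjusted p = 0.00494) and Lpl (0.60 ± 0.098, adjusted p = 0.0083) were called in every leave-one-out fit, while the adipocyte hormone gene Adipoq had 1.42 ± 0.53 (adjusted p = 0.133) and the count was 2 without any single WT culture. Of 22 macrophage markers 3 were higher and 0 lower (median 0.32), with 2720, 6670 and 12300 CPM in sum at day 15, against 1960, 4770 and 13900 CPM at day 10, higher in 5 of 6 cultures. Cd163 (0.81 ± 0.11, adjusted p = 0.00386) and Vsig4 (0.97 ± 0.18, adjusted p = 0.0131) led, Adgre1 had 0.26 (adjusted p = 0.233), and 12 were higher without HBM batch 21 and 2 without WT batch 18 or HBM batch 18. Of 11 osteoclast markers 3 were higher and 0 lower (median 0.13), with 574, 692 and 874 CPM in sum at day 15, against 503, 662 and 756 CPM at day 10, higher in 4 of 6 cultures. The other 8, among them Acp5 (0.21, adjusted p = 0.291), Ctsk (0.10, adjusted p = 0.435) and Nfatc1 (0.13, adjusted p = 0.114), did not pass. Of the called ones, Dcstamp averaged 0.535 CPM, and Mmp9 (1.33, adjusted p = 0.0387) was lost on leaving out any culture but HBM batch 21 (0.0544 to 0.133). Atp6v0d2, a proton pump subunit needed for fusion of osteoclasts, was at 3.52, 17.6 and 40.2 CPM at day 15, against 1.89, 5.10 and 7.79 CPM at day 10 (2.98-fold, 1.57 ± 0.23, adjusted p = 0.00528). Itgax, an integrin chain of dendritic cells and some macrophages and the third largest change among called genes averaging 1 CPM or more, was at 1.79, 28.9 and 89.1 CPM in HBM and 2.02, 16.5 and 34.7 CPM in WT at day 15, against 0.628, 8.52 and 8.26 CPM in HBM and 0.568, 3.59 and 5.33 CPM in WT at day 10. It was higher in all 6 cultures, as the rule for naming it required, and lowest in batch 18 on both days (5.43-fold, 2.44 ± 0.22, adjusted p = 0.00133). The part of these cells in the changes of other genes was not tested.

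The remaining marker lists were small or level. Of 16 chondrocyte markers 0 were higher and 2 lower, Ucma (-0.79 ± 0.11, adjusted p = 0.00439) and Sox5, which was lost without WT batch 19 (adjusted p = 0.0949), WT batch 21 (0.103), HBM batch 18 (0.0788) or HBM batch 19 (0.0684). Their sum was 1700, 2750 and 4350 CPM at day 15, against 1250, 2800 and 5640 CPM at day 10. Of 7 muscle markers 2 were lower, with Myh8 at -0.77 ± 0.11 (adjusted p = 0.0042) and a sum of 12.5, 15.8 and 35.4 CPM at day 15, against 15.0, 18.1 and 49.8 CPM at day 10; Myf5 and Myf6 were at 0 in all 12 libraries. Myh3, the other lower one, was under 1 CPM on both days and was lost on leaving out any 1 culture (adjusted p of 0.0522 to 0.14). Of 9 endothelial markers Vwf passed, at no more than 1.08 CPM, and was lost on leaving out any culture but WT batch 18 (0.0522 to 0.0746), and Cldn5 and Tie1 were at 0. Erythroid markers summed to at most 0.358 CPM at day 15 and at most 0.435 CPM at day 10, with Alas2, Hbb-bs and Hbb-bt at 0. Cd3e, which defines T lymphocytes, was at 0. Neural and glial markers had 1 higher of 5, lost without WT batch 18 or 19 or HBM batch 18 or 19, with a sum of 68.3, 77.4 and 86.6 CPM at day 15, against 57.3, 62.2 and 83.8 CPM at day 10, higher in 6 of 6 cultures. Tendon and fibroblast markers had 1 higher and 1 lower of 11, and edgeR called none of 7 mural, 2 mast cell, 1 neutrophil, 1 lymphocyte and 2 epithelial markers. Osteoblast markers summed to 23100, 56200 and 115000 CPM at day 15, against 29800, 47700 and 93000 CPM at day 10. Col1a1, at 59100 CPM on average over the 12 libraries, made up most of this sum. The sum by itself therefore does not check the labelled cell type.

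Each genotype by itself, with 3 pairs each, gave far fewer calls. In HBM 50 genes were higher and 11 lower (0.38% of genes tested, with 2016 at an unadjusted p under 0.05), and in WT 91 were higher and 39 lower (0.809%, with 2872). With a block by batch number and genotype as a term, both counts were 0. Leaving out a culture of the genotype tested left 13 genes (without batch 18) and 0 (without batch 19) in HBM, and 41 (without batch 18), 0 (without batch 19) and 9 (without batch 21) in WT. Both genotypes share 1 estimate of the spread in the fit. Leaving out WT batch 18 or 19 left 4 or 5 genes in HBM, and leaving out HBM batch 21 or 19 left 290 or 75 in WT. Why these counts moved was not tested. With all cultures kept, 31 genes were called in both genotypes, 50.8% of the HBM calls and 23.8% of the WT calls. All 1221 genes called over the 6 cultures had the same sign in HBM as in WT, a direction that their choice over both genotypes largely fixes. The test of the difference itself, the change in HBM minus the change in WT, called 0 of 16063 genes (0.0%) with edgeR, with 521 at an unadjusted p under 0.05, and 3 with DESeq2. For Sost the difference was 0.37 and for Bglap -0.87 on the log2 scale, neither past the test.

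**Figure D5:**
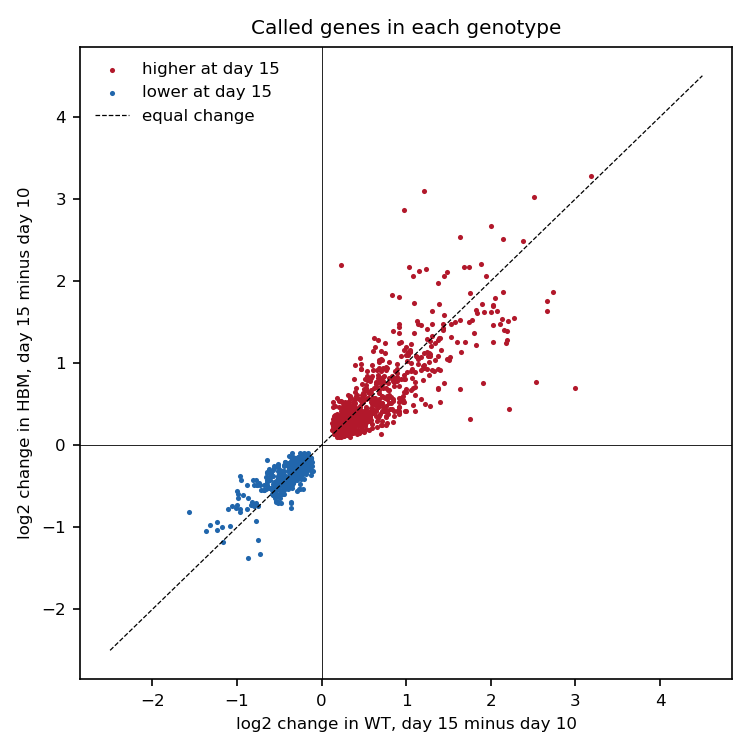
Log2 change between day 15 and day 10 in HBM (vertical axis) against that in WT (horizontal axis) for the 1221 genes called over all 6 cultures, red when higher and blue when lower at day 15; the dashed line marks equal change. All points lie in the quadrants of equal sign, which the choice of the genes largely fixes, and no gene's difference passed edgeR's test.

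The genes with the smallest p for such a difference are given as values. C3, the central complement component, changed by a log2 of -0.24 ± 0.10 in HBM and 0.75 ± 0.096 in WT, a difference of -0.99 ± 0.14 (adjusted p = 0.987). It was at 61.8, 17.1 and 4.47 CPM in HBM at day 15, against 59.8, 22.8 and 6.16 CPM at day 10, and at 92.8, 45.7 and 20.8 CPM in WT at day 15, against 53.2, 29.5 and 11.8 CPM at day 10. Only the WT cultures were all higher at day 15. The same side held Gpd1, an enzyme of triglyceride synthesis (-0.22 in HBM and 1.55 in WT), and Cebpa, an adipocyte factor (0.00 in HBM and 0.41 in WT), each with an adjusted p of 0.987. Over the adipocyte list, the median change was 0.20 in HBM and 1.65 in WT. On the other side the cartilage collagens Col9a3 (0.03 in HBM and -0.77 in WT) and Col9a2 (0.18 in HBM and -0.42 in WT) stood beside Vit (0.98 in HBM and 0.39 in WT) and the arginine transporter Slc7a3 (1.80 in HBM and 0.07 in WT), again with an adjusted p of 0.987.

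The step was compared with the next, day 21 against day 15, which shares the day 15 libraries and covers 6 days, not 5. That next step called 165 genes higher and 199 lower of 16344 (2.23%). The test of a difference between the steps called 0 of 16344 (0.0%) with edgeR, with 1285 at an unadjusted p under 0.05, and 35 with DESeq2. The smallest p belonged to Mrpl14, a mitochondrial ribosome protein, which changed by 0.28 between day 10 and day 15 and by -0.29 between day 15 and day 21 (difference 0.57, adjusted p = 0.0649); it overlaps Tmem63b on the opposite strand. Atp5e, Dpm3, Rpl39l and Sec61g, all genes of small proteins, had the same course, 0.22 to 0.32 in the first step and -0.22 to -0.17 in the second, with adjusted p between 0.155 and 0.216 for the difference. On the other side Fjx1 had -0.46 and 0.08 and Stat2 -0.45 and 0.06 (adjusted p = 0.155 and 0.304), and Sdk1, Shank1 and Adar, which edits adenosines in double-stranded RNA and is induced by interferon, followed at 0.367. Adar's own call (-0.21, adjusted p = 0.0211) was lost without WT batch 18 (0.0652). Stat2 averaged 80.9, 46.8, 36.0 and 34.8 CPM in HBM and 67.8, 51.7, 36.6 and 40.5 CPM in WT at days 0, 10, 15 and 21.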

How the data were processed

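Polyadenylated RNA was sequenced in 24 libraries, and the 12 of day 15 and day 10 entered the comparison. The deposited values are raw read counts per gene in 1 table of 54232 rows, 54164 of which matched GENCODE M21, and the unmatched 68 held at most 0.00337% of a library's counts. The tools named for making them, per the submitters' processing notes, are STAR 2.7.8a, cutadapt 3.4 and featureCounts (Subread 2.0.1), with the mm10 build. How strand was handled and which gene annotation was counted is not given in the sources used here, and reads of overlapping genes could not be separated. Among named genes this concerns, on opposite strands, Dio2, Sulf2, Chad, Ltbp2, Hs3st3a1, Igfbp7, Pth1r, Ptger4, Il34, Tk1, Cdkn1c, Irf7, Fabp3, Plin4, Col9a3, Gpd1, Cebpa, Mrpl14, Shank1, Adar, Usp18, Dhx58, Phospho1, Pcolce and Thbs3, and on the same strand Col1a2, Pcolce, Bmp8a, Irf9 and Phospho1. Totals were 32941356 to 46987734 counts in these 12 libraries.

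Counts were scaled by TMM, genes were filtered with filterByExpr over the 4 groups, and day was tested with the culture as a term by edgeR's quasi-likelihood test (edgeR 4.0.16, R 4.3.3), with Benjamini-Hochberg adjustment over all genes tested and a threshold of 0.05. Changes are log2 with the standard error of the fit. Changes of single cultures use a prior count of 2. The interaction of day and genotype and the difference between the steps to day 15 and to day 21 were tested in the same way. The test was tried on simulated data first. The comparison with DESeq2 1.42.0 and the other alternatives are given in the closing section. Tables and figures were made with Python 3.11.15, pandas 2.3.3, numpy 2.4.6 and matplotlib 3.10.9.

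The pairing comes from the genotype and batch number in the labels, which do not say outright that a number marks 1 culture sampled on each day. Deviations from the group means correlated across genes at 0.706 to 0.808 in the 6 pairs of the same culture on the other day, and at -0.721 to 0.136 in the 48 pairs of different batches. The 12 pairs with the same batch number and the other genotype had 0.616 to 0.813. The biological coefficient of variation was 0.091 with the culture block and 0.298 without it.

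Named genes are 9 fixed genes of bone and collagen I, the 10 higher and 10 lower genes of smallest p, the 5 of largest and 5 of smallest log2 change (called, the same sign in all cultures, at least 1 CPM on average, no clone name), up to 4 members of smallest p in each list, and up to 5 genes a direction for the interaction and the steps. Other members of a list given as values were chosen after their values were seen. The groups, the lists and the tests were chosen with earlier results of these data known. Promoter windows of 250 bases before and 50 after the start come from RefSeq on GRCm38.p6. No protein sequence was used here. Results of a few list members are not reported here.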

Additional observations from a re-analysis of the deposited data

Results flagged for a closer look

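The change between day 15 and day 10 was checked for cultures standing apart in 34 named genes, by the gap of the highest or lowest culture to its neighbour as a share of the range over the 6 cultures (Dixon's test). In 2 genes 1 culture exceeded the critical value, where chance gives about 1 in 20 groups. Col1a1 changed by a log2 of -0.39 in the WT culture of batch 21, against 0.13 to 0.39 in the other 5 cultures. Col1a2 changed by -0.20 in the same culture, against 0.27 to 0.43 in the others.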

How the results depend on the processing

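The 1221 genes called over the 6 cultures became 1159 with RLE size factors, 1423 with DESeq2, 1133 with at least 1 CPM in 6 libraries, 947 with days 10, 15 and 21 in the fit, 1158 with a robust fit and 1177 without batch 21. They became 0 with no replicate block, 734 with a block by batch number and genotype as a term, 1916 with no filter on low counts, 489 without batch 18, 256 without batch 19, and 595 to 1031 on leaving out 1 culture. The 130 genes called in WT became 0 with no replicate block or a block by batch number, 533 with DESeq2, 1027 with no filter, 66 with days 10, 15 and 21, 0, 1 and 304 without batch 18, 19 and 21, and 0 to 290 on leaving out 1 culture. The 61 called in HBM became 0 with no replicate block or a block by batch number, 268 with DESeq2, 629 with no filter, 10 with at least 1 CPM in 6 libraries, 17 with days 10, 15 and 21, 0, 0 and 168 without batch 18, 19 and 21, and 0 to 48 on leaving out 1 culture. Genes whose change differed between the genotypes, 0 with edgeR, were 3 with DESeq2 and 8 with no filter. Genes whose 2 steps differed, 0 with edgeR, were 1 with RLE size factors, 35 with DESeq2, 1 with at least 1 CPM in 6 libraries and 0 to 1 on leaving out 1 culture. The log2 change of Dmp1 turned to -0.26 without batch 21 (adjusted p = 0.735). The 223 called genes that were followed came from the naming rule, the called list members and added genes, and are no random sample of the 1221. Of these 223, 120 kept their call on leaving out any 1 of the 6 cultures and 60 on leaving out any 1 of the 3 batches. The cause of these shifts was not tested. Fits that leave a culture or batch out also hold fewer libraries, and the effect of that was not tested either.

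The counts in lists close to the threshold, such as the cell cycle list, move with any 1 culture, while Bglap, Sost, Isg15 and Nupr1 have the same sign in all 6 cultures. Genes of a few CPM or less, such as Myh3, Vwf and Adm2, rest on few reads. P-values of the blocked tests set the step of a gene against its spread over the 6 pairs, not against the differences in level between cultures. They take the 6 pairs as independent. Levels of libraries with the same batch number and the other genotype correlated at 0.616 to 0.813 after group means were removed. Whether the steps of such cultures are independent was not tested. There are 3 pooled cultures of each genotype, and the pools share a batch number with the other genotype.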

Other observations

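Beside the lists above, 3 more were drawn up after the values had been seen, so their counts are a description. Imprinted genes, which are expressed from the copy of 1 parent and of which many regulate growth before birth, had 6 lower and 1 higher member of 39 tested, and 31 of the 39 had a value below 0 (median log2 change -0.12). H19, an imprinted noncoding RNA, was at 788, 1770 and 2000 CPM (lowest, median and highest) at day 15, against 1020, 2630 and 3120 CPM at day 10, lower in each culture (log2 -0.59 ± 0.071, adjusted p = 0.00287). Peg3 (-0.48, adjusted p = 0.00489), Plagl1 (-0.52, adjusted p = 0.00656), Zim1 (-0.60, adjusted p = 0.01), Cdkn1c and Grb10 were the other lower members. Asb4 was higher (0.79, adjusted p = 0.0331) and was not called without WT batch 18, WT batch 21, HBM batch 18 or HBM batch 19.

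Transcription factors that pattern the skull and face had 7 lower and 0 higher members of 29, with 26 values below 0 (median -0.20), but 3 lower without WT batch 19 and 2 without both cultures of batch 19. Six2 and Alx1, among the lower ones, kept their calls on leaving out any 1 culture. Alx1 was at 5.32, 18.0 and 24.2 CPM at day 15, against 8.04, 24 and 30.6 CPM at day 10 (-0.40 ± 0.055, adjusted p = 0.00439), and was lower in each culture.

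Genes of osteoclast fusion and of giant cells had 11 higher and 0 lower members of 18, with 17 values above 0 (median 0.66), and 3 higher without both cultures of batch 19. Mmp12, a macrophage elastase, was at 3.72, 148 and 325 CPM in HBM and 6.41, 94.3 and 130 CPM in WT at day 15, in batches 18, 19 and 21, against 3.17, 45.6 and 32.5 CPM in HBM and 4.19, 19.7 and 24.5 CPM in WT at day 10. It was higher in every culture and lowest in batch 18 on both days (4.01-fold, log2 2.0 ± 0.32, adjusted p = 0.00803; 0.0735 without both cultures of batch 19). Dcstamp, a membrane protein needed for fusion, was at no more than 2.2 CPM and was listed at 0 in both batch 18 cultures at day 15 (log2 3.24, adjusted p = 0.00703). Gpnmb (0.74, adjusted p = 0.0132) and Tm4sf19 (1.74, adjusted p = 0.0118) were higher as well, Gpnmb in 6 and Tm4sf19 in 5 of the 6 cultures.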
